A study of Drosophila melanogaster with 9 samples.

Results

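Small nucleolar RNAs (snoRNAs) guide chemical changes on ribosomal RNA. Those with box C/D motifs direct fibrillarin to methylate a ribose, those with box H/ACA motifs direct the pseudouridine synthase Nop60B to convert uridine into pseudouridine, and small Cajal body RNAs (scaRNAs) do the same on the spliceosomal RNAs. Most of them in flies lie inside introns of a host gene and are trimmed out of the excised intron, and a Uhg gene (U snoRNA host gene) is a host whose spliced transcript has little coding capacity. Mature snoRNAs and scaRNAs carry no poly(A) tail, so a poly(A)-selected library catches few of them, and a read inside one can also come from unspliced host RNA or from an intron fragment. These origins could not be told apart in counts per gene.

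The genes described here have a FlyBase symbol that begins with snoRNA: or scaRNA:, or that contains Uhg, and a summed raw count of at least 10 over all 9 libraries. Of 265 such symbols in the count files, 138 met the read minimum, among 17559 genes in all. They comprised 131 small RNAs and 7 Uhg genes. The minimum split the genes at a dense place, because 8 genes had 9 reads and 8 genes had 10 reads.

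RNA came from S2R+ cells, an adherent *Drosophila* line from late embryos of the Oregon R strain. All cells took up double-stranded RNA (dsRNA) during 6 h of serum starvation and were harvested on day 5. The KD1 and KD2 groups received the first or the second of a pair of dsRNAs against Hrb98DE, an RNA-binding protein of the hnRNP A family, and the lacZ group received a dsRNA against a bacterial gene that flies lack. Each of the 3 groups had 3 libraries. The study's methods state biological quadruplicates for each dsRNA, whereas its test of mRNA changes gives n = 3. It is a partial depletion in 1 cell line, so no other tissue is represented.

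Libraries held 13040608 to 15931035 counts. Hrb98DE had 6739, 7122 and 6878 normalised read counts (raw counts divided by the size factor of the library) in the lacZ libraries, 1014, 868 and 1052 in KD1 and 1111, 992 and 1122 in KD2, so the targeted gene was low in every library labelled as a knockdown. Of the 6 blood cell markers, srp, Pxn and crq were abundant and the phagocytic receptor gene NimC1 was near 0, with 24 reads in all libraries together. vkg and Col4a1 rose in both knockdowns, with log2 fold changes of 0.44 to 0.57 (DESeq2, adjusted p of 0.00165 or lower), and none of the other 4 was called, with log2 fold changes of -0.03 and 0.12 for srp, 0.18 and 0.29 for Pxn, -0.09 and -0.15 for crq and -0.56 and -0.57 for NimC1 in KD1 and KD2. The Wnt receptor gene fz2, whose expression sets S2R+ apart from other S2 lines, was called lower in KD1, at -0.38 (adjusted p = 0.0122), and stood at -0.27 in KD2 (adjusted p = 0.0941), and the related gene fz was not called. Among markers of other cell types, the neuronal gene elav had a mean of 378 normalised read counts in lacZ, while repo, Act88F and Lsp2 had 6, 0 and 2 reads in total. The part of these markers in the results below was not tested.

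Most small RNA genes were barely represented. Of the 258 listed, 45 had no read in any library, and 82 had 1 to 9 reads. At 95% confidence, counting error alone allows each of the 45 at most 3 of the 133638722 counts of all libraries. Reads shared between repeated gene copies can be lost, so a lack of reads does not show that such an RNA was absent. The 258 genes shared 8082 reads, with 770 to 1129 reads in a library, and the 7 Uhg genes alone took 1807 to 2485. The small RNAs with at least 10 reads had a median of 29 reads in all libraries together, with a highest value of 589, and the 10 most abundant held 39.1% of all small RNA reads.

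The classes were caught unequally. Among box H/ACA RNAs, 75 of 111 reached 10 reads and 2 had none, whereas 30 of 99 box C/D RNAs reached 10 reads and 35 had none. The median total was 19 reads for box H/ACA RNAs, with a median length of 140 bases, and 3 reads for box C/D RNAs, with a median length of 79 bases. Of the scaRNAs, 7 of 15 reached the minimum, and of 33 small RNAs that were assigned no class from their symbol 19 did. Class and length moved together here, and the part of length in the difference was not tested.

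**Figure D1:**
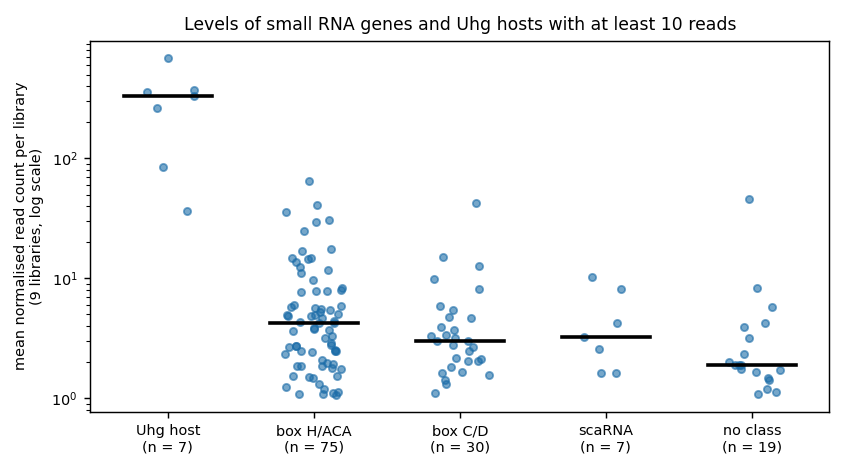
Mean normalised read count per library over all 9 libraries (log scale) for the 138 genes with at least 10 reads, by class. Each point is a gene and each bar the median of its class. The Uhg genes lie above nearly all small RNAs, of which 20 of 131 reached a mean of 10.

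The kind of host also went with the level. Small RNAs within Uhg genes were mostly short box C/D RNAs, and those within ribosomal protein genes mostly longer box H/ACA RNAs. Host, class and length thus moved together, and the part of each was not tested. Ribosomal protein genes held 71 of the listed small RNAs within their span, 66 of them wholly inside an intron, and together these 71 had 4154 reads. The 58 that reached 10 reads were all intronic and lay in 25 genes. Uhg genes held 47 within their span, 45 of them intronic, and 10 reached the minimum, with 437 reads for the 47 together. All 14 small RNAs within RpS5a reached 10 reads, whereas none of the 17 within Arpc2, which encodes an actin nucleation subunit, did. RpL22, kra and RpS7 gave the most small RNA reads, with 868, 840 and 693. Their own transcripts had 7335 ± 567, 9091 ± 372 and 40365 ± 2084 normalised read counts in lacZ (mean ± SD, n = 3). RpL5, at 129012 in the same libraries, holds 1 small RNA, which had 124 reads.

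The first question was whether the small RNAs and Uhg genes changed when Hrb98DE was depleted. Genes were called at an adjusted p under 0.05 and a fold change above 1.3. In KD1, 37 of the 138 genes received an adjusted p, and 4 of them (10.8%) were called higher and 1 (2.70%) lower, against 2.18% higher and 4.77% lower over all genes. In KD2, 47 received an adjusted p, and 7 (14.9%) were called higher and 2 (4.26%) lower, against 2.8% and 4.9%. With both knockdowns pooled the counts were 6 higher and 2 lower among 61 genes, against 2.53% and 5.23%. KD1 and KD2 share the lacZ libraries, so their calls are not independent. The small RNAs called higher came from introns of few genes, where some neighbours can share fragments, so they are not separate observations. The remaining genes had too few reads for the DESeq2 filter, and the median standard error over the 138 genes was 0.95 in KD1 and 0.93 in KD2 on the log2 scale, against 0.10 over all genes. Their median log2 fold changes were -0.03 in KD1 and 0.07 in KD2, and those of all genes were -0.01 and 0.00.

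The clearest case was Uhg1, the most abundant Uhg gene (chromosome 2R, 17699097 to 17703344, forward strand). It had 546, 557 and 515 normalised read counts in lacZ, 585, 707 and 798 in KD1 and 816, 930 and 801 in KD2. Every knockdown library lay above every lacZ library. The log2 fold change was 0.65 ± 0.10 (SE) in KD2 (DESeq2, adjusted p = 4.35e-09). In KD1 it was 0.37 ± 0.10 (adjusted p = 0.00312), which was just under the fold threshold, so the gene was not called there. The difference of KD1 from KD2 was -0.29 ± 0.10 (DESeq2, adjusted p = 0.295). The call in KD2 was kept when any single library was left out. As in any bulk library, a change in the share of cells that express a gene and a change in its RNA per cell cannot be told apart. Exons of Uhg1 lie opposite CG46315 and CG6424, and the strand setting of the counting is not given in the sources used here.

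DESeq2 called no other Uhg gene in either knockdown. Uhg5 had 285, 294 and 286 normalised read counts in lacZ, 379, 351 and 292 in KD1 and 377, 355 and 356 in KD2. Its log2 fold change in KD2 was 0.33 ± 0.11 (DESeq2, adjusted p = 0.0132), below the fold threshold, and 0.24 ± 0.11 in KD1 (adjusted p = 0.101). Uhg7 had 27.0, 24.6 and 28.6 in lacZ, 37.7, 33.5 and 41.4 in KD1 and 56.8, 30.9 and 45.2 in KD2. These groups did not overlap, yet its log2 fold changes of 0.49 ± 0.30 and 0.74 ± 0.29 missed the threshold (adjusted p = 0.268 and 0.0552). By edgeR it was called in KD2 (adjusted p = 0.0275). Exons of Uhg7 overlap RpL23A on the same strand, so its reads are uncertain.

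For Uhg2, Uhg3, Uhg4 and Uhg8 the knockdown libraries overlapped the lacZ libraries. Their log2 fold changes ran from -0.07 to 0.14 in KD1 and from -0.18 to 0.12 in KD2. The 95% intervals in KD2 were -0.18 to 0.26 for Uhg2, -0.07 to 0.30 for Uhg3, -0.38 to 0.01 for Uhg4 and -0.28 to 0.47 for Uhg8. The 7 genes summed to 1934 ± 50.4 normalised read counts in lacZ, 2154 ± 27.5 under KD1 and 2328 ± 45.6 under KD2 (SD, n = 3). Uhg1 contributed most of that difference.

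**Figure D2:**
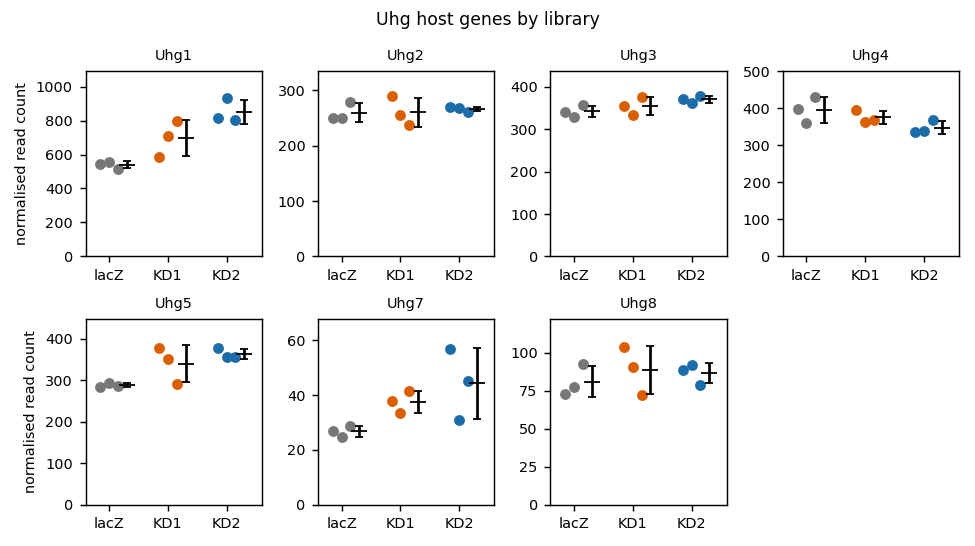
Normalised read counts of the 7 Uhg genes in each library (points), with mean and SD of the 3 libraries of a group (black). Uhg1 is higher in all 6 knockdown libraries than in lacZ, and for 5 of the 7 genes the knockdown and lacZ libraries overlap.

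The small RNAs inside Uhg1 did not offer a measurement of the same change. It holds 16 snoRNAs, none of which reached 10 reads, and together they had 21 reads in the 9 libraries. The same holds for Uhg3 and Uhg8, with no small RNA at 10 reads. Uhg4 held the best measured one, snoRNA:Or-CD2, with 134 reads, and its 7 small RNAs summed to 27.4 ± 6.7 normalised read counts in lacZ, 22.4 ± 9.2 in KD1 and 21.8 ± 9.1 in KD2, which overlapped.

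Small RNAs called higher by DESeq2 were all of the box H/ACA class and came from the introns of 3 genes. RpS7 and RpL22 encode ribosomal proteins, and kra encodes a translation regulator of the eIF5 mimic family. snoRNA:Psi18S-1377a lies in intron 2 of RpS7 (chromosome 3R, 30207745 to 30207883, reverse strand). It had 21.0, 14.2 and 12.1 normalised read counts in lacZ, 43.3, 29.6 and 63.7 in KD1 and 59.6, 35.0 and 44.1 in KD2. The lowest knockdown library was above the highest lacZ library. Its log2 fold changes were 1.52 ± 0.35 and 1.55 ± 0.35 (DESeq2, adjusted p = 2.62e-04 in KD1 and 1.53e-04 in KD2). It was the only small RNA of the 138 genes whose calls in KD1 and in KD2 were kept in all 16 alternative fits. It has 4 similarly named copies in the intron, and reads that fit several copies could be assigned to any of them.

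Its neighbour snoRNA:Psi28S-2626 (30207898 to 30208039) starts 14 bases away in the same intron, so 1 fragment can cover both. It had 10.0, 9.4 and 3.3 in lacZ, 17.9, 21.0 and 20.2 in KD1 and 19.6, 21.6 and 27.7 in KD2. Again the groups did not overlap, and the lowest value was that of lacZ replicate 3. The log2 fold changes were 1.35 ± 0.46 (DESeq2, adjusted p = 0.0203) and 1.57 ± 0.45 (adjusted p = 0.00439). Without lacZ replicate 3 they were 1.02 and 1.24 and no longer called (adjusted p = 0.193 and 0.0755). The call in KD1 was also lost without KD1 replicate 1, 3 or 4 (adjusted p = 0.0597, 0.0767 and 0.0750), and that in KD2 without KD2 replicate 4 (adjusted p = 0.0533).

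The kra gene gave the next pair, both in intron 8. snoRNA:Psi28S-3091b (chromosome 3R, 5596526 to 5596658, reverse strand) had 17.0, 12.3 and 19.8 normalised read counts in lacZ, 31.1, 35.4 and 29.7 in KD1 and 29.8, 43.3 and 46.2 in KD2. It showed log2 fold changes of 0.98 ± 0.34 and 1.29 ± 0.33 (DESeq2, adjusted p = 0.0237 and 0.00123). The call in KD2 held without any single library, and the call in KD1 was lost without any of the KD1 libraries and without lacZ replicates 1 or 2 (adjusted p of 0.0600 to 0.134).

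snoRNA:Psi28S-3091a (5596697 to 5596831) had 8.0, 12.3 and 9.9 in lacZ, 22.6, 21.98 and 18.1 in KD1 and 22.4, 19.6 and 23.6 in KD2, with no overlap. Log2 fold changes reached 1.05 ± 0.42 and 1.11 ± 0.42, called in KD2 only (DESeq2, adjusted p = 0.0578 and 0.0372). That call was lost whichever of the 9 libraries was left out (adjusted p of 0.0511 to 0.198), with log2 fold changes of 0.97 to 1.29. The suffixes mark related copies, whose reads cannot be told apart with certainty.

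RpL22 intron 2 holds the most abundant small RNA of all. snoRNA:Psi18S-531 (chromosome X, 763083 to 763234, reverse strand) had 43.0, 43.5 and 46.2 normalised read counts in lacZ, 90.4, 53.5 and 62.7 in KD1 and 87.5, 72.1 and 85.2 in KD2. All knockdown libraries were higher, with KD1 replicate 1 well above the other KD1 libraries. Its span also lies within lncRNA:CR42491 on the same strand, and RpL22 was taken as host because protein-coding genes came first. The log2 fold changes were 0.64 ± 0.23 and 0.89 ± 0.23 (DESeq2, adjusted p = 0.0338 and 0.00126). In KD1 the call was lost without either of KD1 replicates 1 and 4, either of KD2 replicates 1 and 4, or any lacZ library, and without KD1 replicate 1 the log2 fold change fell to 0.39 (adjusted p = 0.422).

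The second RpL22 snoRNA, snoRNA:Psi28S-2179 (763942 to 764086), had 24.0, 24.6 and 16.5 in lacZ, 26.4, 29.6 and 35.1 in KD1 and 47.5, 30.9 and 42.1 in KD2. It was called in KD2, at 0.88 ± 0.31 (DESeq2, adjusted p = 0.0263), and not in KD1, at 0.47 ± 0.32 (adjusted p = 0.334). The KD2 call was lost without KD2 replicate 1 or 4 and without lacZ replicate 1 or 3 (adjusted p of 0.0732 to 0.194). The difference of KD1 from KD2 was -0.41 ± 0.30 (SE), with a 95% interval of -0.99 to 0.17.

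Small RNAs called lower by DESeq2 were snoRNA:Tudor-SN-a and snoRNA:Psi28S-291. snoRNA:Tudor-SN-a lies in intron 3 of Tudor-SN, which encodes a nuclease with Tudor and staphylococcal nuclease domains (chromosome 3L, 259970 to 260280, reverse strand). It had 61.0, 61.4 and 80.4 normalised read counts in lacZ, 37.7, 33.5 and 40.4 in KD1 and 30.7, 41.2 and 27.7 in KD2. Every knockdown library was below every lacZ library. The log2 fold changes were -0.86 ± 0.25 and -1.02 ± 0.25 (DESeq2, adjusted p = 0.00524 and 6.71e-04), and only the KD1 call was lost in a leave-one-out fit, without lacZ replicate 3 (-0.72, adjusted p = 0.0993).

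snoRNA:Psi28S-291 in intron 4 of RpL3 (chromosome 3R, 11223571 to 11223790, forward strand) had 42.0, 68.0 and 49.5 in lacZ, 38.6, 35.4 and 37.2 in KD1 and 40.0, 29.9 and 26.7 in KD2. The gap between the lowest lacZ and the highest knockdown library was small. Its log2 fold change was -0.72 ± 0.27 in KD2 (DESeq2, adjusted p = 0.0414) and -0.53 ± 0.27 in KD1 (adjusted p = 0.167). The call in KD2 was lost when a KD1 library was left out, whichever it was, and without KD2 replicates 2 or 4, or lacZ replicates 2 or 3 (adjusted p of 0.0588 to 0.295), and without lacZ replicate 2 the log2 fold change was -0.50.

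**Figure D3:**
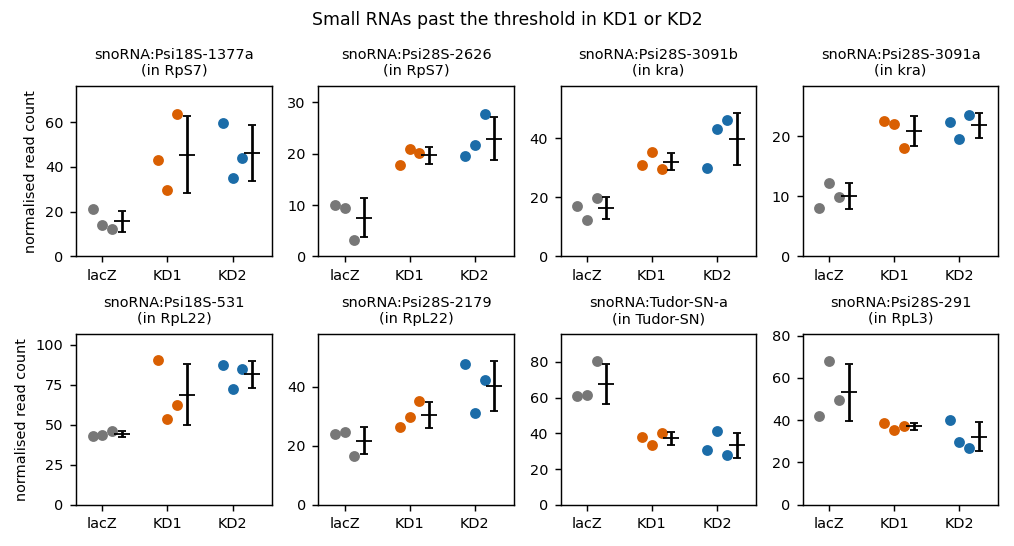
Normalised read counts of the 8 small RNAs called in KD1 or KD2 in each library (points), with mean and SD of the 3 libraries of a group (black), each with its host gene. The 6 RNAs from RpS7, kra and RpL22 are higher in all knockdown libraries and the RNAs from Tudor-SN and RpL3 are lower in all of them.

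Of the 138 genes, 10 had all 6 knockdown libraries above all lacZ libraries, against 10.7% of all genes, and 5 had all 6 below, against 12%. These shares are no higher than those over all genes. Besides Uhg1, Uhg7 and the 6 RNAs called higher, the former were snoRNA:Psi28S-3385a and snoRNA:Psi28S-3385b of kra intron 8. Besides the 2 called lower, the latter were snoRNA:U3:9B, snoRNA:Psi28S-1135a and snoRNA:SC35-b. U3, which is needed for cleavage of the ribosomal RNA precursor, had 19.0, 16.1 and 22.02 normalised read counts in lacZ at its locus snoRNA:U3:9B, 16.01, 4.8 and 5.3 in KD1 and 12.1, 8.2 and 10.3 in KD2, with log2 fold changes of -1.11 ± 0.49 and -0.89 ± 0.48 that were not called (DESeq2, adjusted p = 0.102 and 0.199). U3 has other gene copies, so its reads are uncertain.

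No small RNA or Uhg gene was called between KD1 and KD2 by DESeq2 or by edgeR, against 0.0259% of all genes with an adjusted p. Uhg1 alone received an adjusted p there. At an unadjusted p under 0.05 there were 2 of the 138 genes (1.45%), against 4.07% of all genes.

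The most abundant box C/D RNA showed no call. snoRNA:Me28S-A1322, in an intron of eEF1alpha1, had 32.0, 37.8 and 49.5 normalised read counts in lacZ, 41.4, 39.2 and 55.2 in KD1 and 48.4, 37.1 and 45.2 in KD2, which overlapped. The 95% intervals of its log2 fold change were -0.33 to 0.71 in KD1 and -0.38 to 0.66 in KD2. Its host was not analysed here. DESeq2 called no box C/D RNA of the 30, and an adjusted p was available for 5 of them in KD1 and for 7 in KD2. edgeR called snoRNA:Me18S-A1576 lower in KD1, at a log2 fold change of -2.82 (adjusted p = 0.0222), and with both knockdowns together, at -2.10 (adjusted p = 0.0181). Box C/D RNAs, counting all 99 listed, summed to 181 ± 18.2 in lacZ, 157 ± 24.6 in KD1 and 186 ± 28.8 in KD2.

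Box H/ACA RNAs summed to 509 ± 52.3 normalised read counts in lacZ, 591 ± 38.9 in KD1 and 667 ± 91.2 in KD2, with overlapping libraries. Of the 75 with at least 10 reads, 45 had a positive log2 fold change in KD1 and 44 in KD2, with medians of 0.14 and 0.26. Without the small RNAs of kra, RpS7 and RpL22 the sum stood at 340 ± 54.8 in lacZ, 304 ± 22.7 in KD1 and 328 ± 60.8 in KD2. These 3 genes were set apart after their values were seen, so nothing is read from the difference between the sums.

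The scaRNAs stood lower. All 15 listed had 55.0, 42.5 and 42.9 normalised read counts together in lacZ, 32.0, 36.3 and 23.4 in KD1 and 22.4, 25.8 and 34.9 in KD2. No knockdown library reached the lowest lacZ library, and the means were 65.3% and 59.1% of lacZ. This sum was formed after the values were seen and has no test. A lower sum was not particular to scaRNAs. The 33 small RNAs without a class stood at 66.2% (KD1) and 66.8% (KD2) of their lacZ mean, without overlap. Leaving out snoRNA:Tudor-SN-a gave 80.1% and 88.6%, and the libraries then overlapped. Among the 19 of them with at least 10 reads, log2 fold changes were negative for 15 (KD1) and 16 (KD2). These sums were not tested either. DESeq2 called none of the 7 scaRNAs with at least 10 reads, whereas edgeR called scaRNA:PsiU5-44 lower with both knockdowns together, at -1.17 (adjusted p = 0.0277). Of the 7, 6 in KD1 and all 7 in KD2 had a negative log2 fold change. The largest share came from scaRNA:MeU5-C46, in an intron of CG1142, with 92 reads, and from scaRNA:PsiU5-44, in an intron of the splicing regulator gene tra2, with 74 reads and raw counts of 18, 16 and 5 in lacZ, 5, 5 and 6 in KD1 and 6, 6 and 7 in KD2. The names place both on the U5 RNA of the spliceosome.

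The second question was whether a small RNA moved with its host. The log2 ratio of small RNA to host was compared between the 6 knockdown and the 3 lacZ libraries. Both genes needed a mean of at least 10 normalised read counts over all 9 libraries, which favours RNAs high in the knockdowns. snoRNA:Psi28S-2626, at a mean of 7.6 in lacZ, entered through its means of 19.7 (KD1) and 23.0 (KD2). scaRNA:PsiU5-44, at 12.9 in lacZ, was left out with 5.3 (KD1) and 6.3 (KD2). The minimum gave 16 pairs in 10 hosts. Of these, 8 passed an unadjusted p of 0.05 in the exact two-sided permutation test, 6 with a higher and 2 with a lower ratio. The balance of higher and lower ratios depends in part on the minimum. Each of the 8 had an exact permutation p of 0.0238, the smallest that 84 arrangements allow, and an adjusted p of 0.0476. Pairs in 1 host share the host's counts and are not independent. The 8 are the small RNAs described above, so the ratio test adds the host rather than a separate set of reads.

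RpS7 itself had 40015, 42601 and 38478 normalised read counts in lacZ, 44779, 43084 and 42447 in KD1 and 40699, 42936 and 43913 in KD2. It showed log2 fold changes of 0.11 ± 0.05 and 0.07 ± 0.05 (DESeq2, adjusted p = 0.138 and 0.334). The log2 ratio to RpS7 was higher in the knockdowns by 1.41 for snoRNA:Psi18S-1377a and by 1.47 for snoRNA:Psi28S-2626 (exact permutation test, p = 0.0238 for each).

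RpL22 had 7616, 7706 and 6682 in lacZ, 6420, 5282 and 6674 in KD1 and 6136, 7186 and 8443 in KD2. It was not called, with log2 fold changes of -0.26 ± 0.15 and -0.02 ± 0.15. The ratio to it was higher by 0.88 for snoRNA:Psi18S-531 and by 0.82 for snoRNA:Psi28S-2179 (exact permutation test, p = 0.0238 for each), so these RNAs were higher relative to a host whose libraries overlapped.

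kra was the host that also rose, though by less than snoRNA:Psi28S-3091a and snoRNA:Psi28S-3091b. The host had 8709, 9451 and 9112 in lacZ, 11325, 10664 and 11382 in KD1 and 11851, 10517 and 11307 in KD2. It showed log2 fold changes of 0.29 ± 0.06 and 0.30 ± 0.06 (DESeq2, adjusted p = 5.15e-06 and 1.45e-06), below the fold threshold of 1.3. The ratio to it was higher by 0.82 for snoRNA:Psi28S-3091b and by 0.77 for snoRNA:Psi28S-3091a, and by 0.36 and 0.48 for snoRNA:Psi28S-3385a and snoRNA:Psi28S-3385b (exact permutation test, p = 0.119 and 0.143).

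Tudor-SN and its small RNA went opposite ways. The host had 7991, 9315 and 8366 in lacZ and 9365 to 9990 in the knockdown libraries, with log2 fold changes of 0.19 ± 0.06 and 0.16 ± 0.06 (DESeq2, adjusted p = 0.00746 and 0.0232), which did not reach the fold threshold. The ratio of snoRNA:Tudor-SN-a to it was lower by 1.11 on the log2 scale (log2 ratios of -6.98 ± 0.27 in lacZ, -8.02 ± 0.11 under KD1 and -8.17 ± 0.32 under KD2, SD, n = 3). RpL3 had log2 fold changes of -0.04 ± 0.05 and -0.06 ± 0.05, and the ratio of snoRNA:Psi28S-291 to it differed by -0.55.

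The other 8 pairs overlapped between knockdown and lacZ. Besides the 2 of kra they were scaRNA:MeU5-C46 in CG1142, snoRNA:Psi28S-3436a and snoRNA:Psi28S-3436b in RpL17, snoRNA:Psi28S-2996 in RpL5, snoRNA:Psi18S-920 in RpL10Ab and snoRNA:Or-CD2 in Uhg4. Their ratios differed by -0.49 to 0.48, with an exact permutation p of 0.119 to 0.714.

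**Figure D4:**
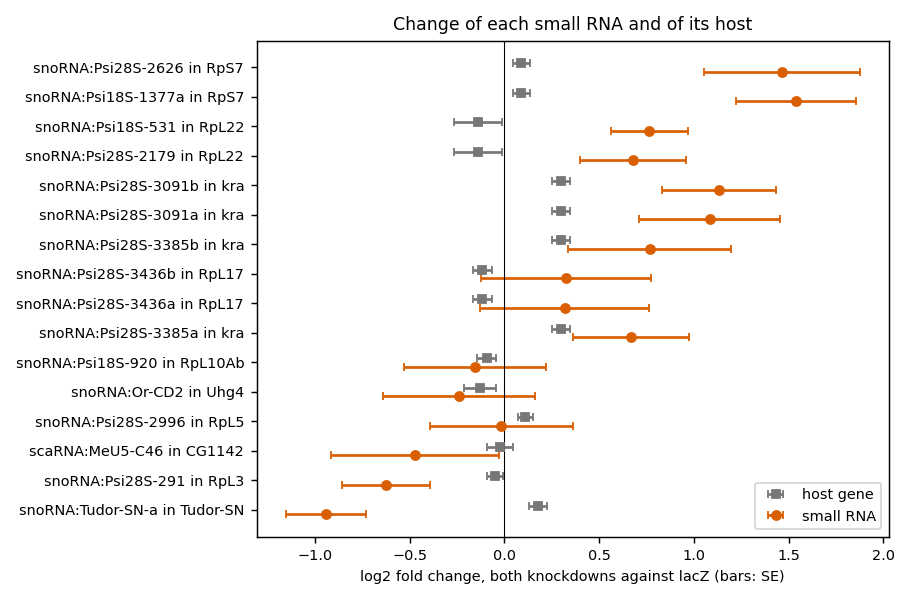
Log2 fold change of each small RNA (circles) and of its host gene (squares) with both knockdowns pooled against lacZ, with the standard error from DESeq2, for the 16 pairs ordered by their difference in log2 ratio. Hosts stay within -0.14 and 0.30, while small RNAs range from -0.94 in Tudor-SN to 1.54 in RpS7.

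Within an intron the small RNAs were unequal, and these sums were formed after the values were seen. RpS7 intron 2 is 1371 bases long and holds all 7 small RNAs of the gene. snoRNA:Psi28S-2626 and snoRNA:Psi18S-1377a lie nearest to its 5′ end, at 53 and 209 bases, and had 152 and 325 reads, whereas the other 5 had 33 to 53 reads each. The first 2 summed to 31.0, 23.6 and 15.4 normalised read counts in lacZ, 61.2, 50.6 and 83.9 in KD1 and 79.2, 56.7 and 71.8 in KD2. The other 5 summed to 18.4 ± 4.6, 24.3 ± 3.8 and 28.8 ± 9.3 in lacZ, KD1 and KD2 and overlapped.

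In kra the 4 small RNAs of intron 8 had 759 reads and the 4 in introns 4 to 6 had 81. Those of intron 8 summed to 49.99, 50.1 and 57.3 in lacZ, 92.3, 97.5 and 86.0 in KD1 and 94.1, 114 and 114 in KD2, so the sum was 175% and 205% of its lacZ mean with no overlap. Those of introns 4 to 6 summed to 8.2 ± 2.7, 7.1 ± 4.0 and 11.8 ± 3.8 and overlapped. Neighbours in intron 8 are 16 to 38 bases apart, so 1 fragment can overlap more than 1 of them. Such fragments may have been left uncounted under the default counting mode that the study states.

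In RpL22 intron 2 the small RNAs lie 215 and 1067 bases from the 5′ end, and the one farther from it had more reads. Together they had 67.0, 68.0 and 62.8 in lacZ, 117, 83.1 and 97.7 in KD1 and 135, 103 and 127 in KD2. The position of the well-covered RNAs therefore differed between these introns.

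**Figure D5:**
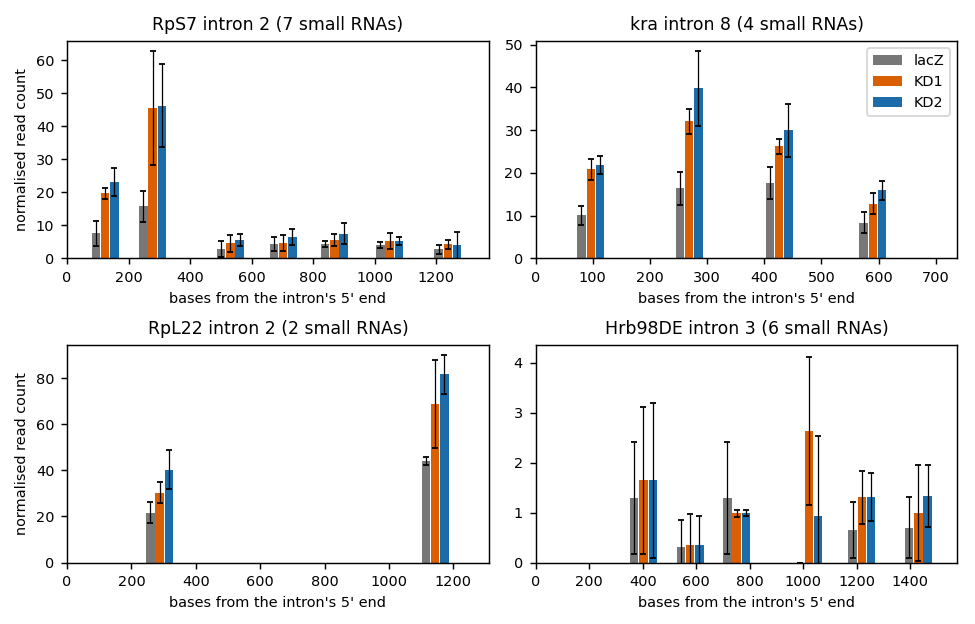
Mean normalised read count (bars, with SD of the 3 libraries) of each small RNA in lacZ, KD1 and KD2 against its distance from the 5′ end of the intron, for introns of RpS7, kra, RpL22 and Hrb98DE. In RpS7 most of the reads sit in the first 2 of 7 small RNAs, in kra intron 8 all 4 have higher means in the knockdowns, and in Hrb98DE intron 3 the means stay below 3.

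Sums over the small RNAs of other hosts overlapped between the groups or were lower in the knockdowns. The 5 of RpS16 summed to 24.6 ± 2.3 normalised read counts in lacZ, 31.9 ± 6.2 in KD1 and 36.5 ± 11.4 in KD2, and the groups overlapped. The 14 small RNAs of RpS5a summed to 46.8 ± 4.7, 45.3 ± 6.7 and 53.7 ± 7.6 in the same order. The 15 in dom, a gene of a chromatin remodelling ATPase, summed to 13.02 ± 2.7, 11.2 ± 0.7 and 13.4 ± 5.7. Sums were lower in every knockdown library than in every lacZ library for 3 further hosts, all with few reads. Those of Sf3b3 were 19.0 ± 4.8, 11.1 ± 1.9 and 12.05 ± 3.2, those of Arpc2 11.7 ± 3.0, 3.6 ± 2.0 and 5.2 ± 1.9, and those of the SR protein gene SC35 6.7 ± 0.2, 3.6 ± 1.5 and 2.3 ± 1.4.

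Hrb98DE is itself a host, with 6 box H/ACA RNAs in intron 3 and 1 in intron 5. The host fell to a log2 fold change of -2.82 ± 0.07 in KD1 and -2.68 ± 0.07 in KD2. Its 7 small RNAs together had raw counts of 7, 17 and 7 in lacZ, 16, 6 and 12 in KD1 and 18, 6 and 7 in KD2. Normalised, these were 10.3 ± 5.0, 11.2 ± 4.9 and 10.0 ± 5.8, or 109% and 97.9% of lacZ, and the groups overlapped. No fall of the size seen in the host appeared in the sum, although with 96 reads in all the precision was low. The best covered, snoRNA:Psi28S-3305c, had 39 reads and a log2 fold change of -0.82 with both knockdowns together (95% interval of -2.53 to 0.88), an interval that lies above the change of the host.

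Genes for proteins that build and use these RNAs, together with genes of RNA decay, made up a list of 33, of which 31 were matched. In each knockdown 4 were called higher and none lower, where 2.18% and 2.8% of all genes were called higher in KD1 and KD2. They were the methylase gene Fib, with log2 fold changes of 0.47 ± 0.09 and 0.49 ± 0.09, nop5 of the box C/D particle with 0.46 ± 0.09 and 0.53 ± 0.09, Gar1 of the box H/ACA particle with 0.39 ± 0.09 and 0.47 ± 0.09, and the nucleolar chaperone gene Nopp140 with 0.44 ± 0.06 and 0.41 ± 0.06 (DESeq2, adjusted p of 3.29e-04 or lower). All 6 knockdown libraries were above all lacZ libraries for these 4. At an adjusted p under 0.05 with no fold requirement, 17 were higher in KD1 and 15 in KD2, where 9.02% and 10.1% of all genes with an adjusted p were, and the median log2 fold change of the 31 was 0.23 in both.

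The pseudouridine synthase gene Nop60B, itself a snoRNA host, had log2 fold changes of 0.27 ± 0.08 and 0.31 ± 0.08 (DESeq2, adjusted p = 0.0112 and 0.00250), and NHP2 of the same particle had 0.28 ± 0.08 and 0.19 ± 0.08 (adjusted p = 0.00526 and 0.0837). Neither reached the fold threshold. Of the 11 genes for intron release and trimming, 7 in KD1 and 6 in KD2 were higher at an adjusted p under 0.05. Over all genes with an adjusted p the shares were 9.02% and 10.1%. None of the 11 was called. None of the 6 genes of nonsense-mediated decay, the pathway that degrades spliced Uhg transcripts in mammals, passed in either knockdown, with medians of -0.03 and -0.04.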

How the data were processed

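Poly(A)-selected RNA of 9 S2R+ cultures was sequenced. Per the labels and the methods of the study, the authors aligned reads to BDGP6 with STAR (2.5.1b), discarded reads that mapped to many loci, kept primary alignments and counted reads per gene with featureCounts (Subread 1.4.6-p2) and Ensembl gene models. The deposited values are raw read counts per gene, not normalised or pooled. Reads shared between repeated gene copies are therefore lost or placed on 1 of them.

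Samples were grouped by title. Positions, introns and hosts came from Ensembl release 115 of the same assembly. Classes came from patterns in the symbol alone, which left some small RNAs, such as snoRNA:CD-24, without a class. A host is a gene on the same strand whose span holds the small RNA. DESeq2 (1.42.0, R 4.3.3) with median-of-ratios size factors (0.908 to 1.07) was fitted to all 9 libraries and the 9669 genes with at least 10 reads in total, with a 3-level group factor. P-values came from the Wald test with Benjamini-Hochberg adjustment over all genes and independent filtering (alpha 0.1). Genes were called at an adjusted p under 0.05 and a fold change above 1.3. Host ratios used normalised counts plus 0.5 and an exact permutation test (scipy 1.17.1), adjusted over the 16 pairs. The procedures were tested on simulated data. The changed genes there had more reads than most small RNAs, and the simulated ratio shift exceeded every difference seen here. These tests therefore do not cover calls at low counts.

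Named are every Uhg gene, the genes called in KD1 or KD2, the 10 small RNAs with the highest mean, their hosts, Hrb98DE, and machinery genes past the threshold together with Fib, Nop60B, NHP2 and nop5. Further genes, among them the scaRNAs and the intron sums, were chosen after their values were seen. The genes described and the lists were chosen with earlier results of these data known. Alternatives were edgeR (4.0.16), TMM factors, a mean CPM above 1, no filter on low counts, no independent filtering, a prior on fold changes, no fold requirement, the replicate number as a block and leaving out each library. For ratios they were another pseudocount, minimum, scaling and host rule. Intervals come from the DESeq2 standard error, which includes the spread between libraries, and floors cover counting error only. Some hosts and machinery genes were not analysed here, and no sequences are shown.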

Additional observations from a re-analysis of the deposited data

How the results depend on the processing

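The number of genes called was 5 in KD1, 9 in KD2 and 8 with both knockdowns together. TMM factors, no filter on low counts, no independent filtering and no fold requirement left each count within 1.5 times, as did a mean CPM above 1, which kept only 18 of the 138 genes. edgeR called 8, 12 and 15. The added calls in KD1 were snoRNA:Psi28S-3091a, snoRNA:Me18S-A1576 and snoRNA:M, the last with 2, 2 and 3 reads in lacZ and none in KD1. In KD2 they included Uhg7 (edgeR, adjusted p = 0.0275). A prior on fold changes gave 2, 5 and 5 calls. Leaving out each library in turn gave 2 to 5 calls in KD1, 5 to 8 in KD2 and 6 to 9 with both together. The ratio test passed 8 of 16 pairs. It passed 5 of 5 where both genes needed a mean of 30, because fewer pairs were tested, and 8 without any single knockdown library. It was not run without a lacZ library, since 6 against 2 libraries cannot give an exact permutation p below 0.0714. Of the alternative values of single named genes, 1042 kept their direction and side of the threshold, 75 lost a call, 14 gained one and 0 reversed. The 1042 include values that were never called and so had no call to lose. Single calls were kept in 5 of 16 alternative fits (snoRNA:Psi28S-3091a in KD2) up to all 16 (Uhg1 in KD2).

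With the replicate number as a replicate block, 1 gene was called in KD1 and 2 each in KD2 and with both together, namely snoRNA:Psi18S-1377a and, in the latter, Uhg1. For samples of the same number, the correlations of their deviations from the group means over 7644 genes ran from -0.27 to 0.16 for 6 pairs. Of these, 1 was over 0.1, and their mean was -0.05, against 0.01 for other pairs. With 3 libraries in a group, these correlations cannot decide whether samples of the same number share a batch. For the ratio test a replicate block was added after seeing the data, with the lacZ label moved within each number. It passed 0 of the 16 pairs, since 12 arrangements cannot give an exact permutation p below 0.0833. The 8 differences kept their direction, at 0.81 to 1.36 and -1.06 to -0.48. Depth limits these results: the median total of the 131 small RNAs was 29 reads in 9 libraries.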
